A study of Mus musculus with 10 samples.

Results

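The kainate and metabotropic glutamate receptor genes were followed in the ventral hippocampus (vHpc) of ovariectomized (OVX) mice. The 9 genes were taken by name, 9 of 24421 gene symbols in the table: the kainate receptor subunit genes Grik1, Grik2, Grik3, Grik4 and Grik5, and the metabotropic receptor genes Grm5 (group I), Grm2 and Grm3 (group II) and Grm7 (group III). The study asked how estradiol (E2) add-back acts on mice with and without the BDNF Val66Met allele, a knock-in that exchanges valine 66 of brain-derived neurotrophic factor for methionine. Female mice, either C57/BL6 wild-type (WT) or with 1 knock-in copy (Het-Met), were ovariectomized at 70 to 80 days of age. After 2 weeks of recovery they drank either vehicle with 0.1% ethanol or 300 nM E2 in the same vehicle, about 0.7 µg per day, for 6 weeks. All groups had thus lost the ovaries and drunk ethanol, and the 1 Met copy of the Het-Met mice was in every cell.

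RNA-seq was available for 10 libraries, each from RNA pooled from 2 animals: vehicle-treated OVX WT mice (replicates 1 and 3), E2-treated OVX WT mice (replicates 1 and 2), vehicle-treated OVX Het-Met mice (replicates 1, 2 and 3) and E2-treated OVX Het-Met mice (replicates 1, 2 and 3). The methods of the study give 3 replicates per group, so 1 library of each WT group was not analysed here. Values were reads per 1000000 reads counted on genes (CPM), and 19820184 to 23267410 reads per library lay on genes. Hippocampal markers were present in every library, with summed levels of 656 to 782 CPM over 5 CA1 genes and 285 to 412 CPM over 5 dentate gyrus granule cell genes. Markers of choroid plexus, a secretory tissue beside the hippocampus, varied far more, from 152 to 3252 CPM over 9 genes.

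Glutamate is the main excitatory transmitter of the hippocampus. Kainate receptors are ion channels of 4 subunits: the products of Grik1, Grik2 and Grik3 form channels alone, whereas those of Grik4 and Grik5 bind kainate with high affinity and need a partner from the first set. Metabotropic receptors signal through G proteins. The group I receptor mGlu5 couples to phospholipase C, whereas the group II receptors mGlu2 and mGlu3 and the group III receptor mGlu7 lower cyclic AMP and damp transmitter release. In a tissue sample, a fall in the number of cells that express a gene and a fall in RNA per cell cannot be told apart.

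All 9 genes were well above the filter for testing, a mean of 0.5 CPM that 15081 genes passed. Divided by exonic length, Grik5 was the highest, at 59.6 ± 3.48 CPM per kb (SD, n = 10), and Grm5 followed at 32.3 ± 2.19 CPM per kb. The lowest was Grik1, at 3.78 ± 0.434 CPM per kb. Between them lay Grm3 with 17.2 ± 1.76 CPM per kb and Grm2 with 15.5 ± 1.90 CPM per kb. The levels per kb of Grm7, Grik4, Grik3 and Grik2 were 12.1 ± 0.727, 11.5 ± 0.550, 8.33 ± 0.871 and 6.92 ± 0.289. The library ranges of neighbours in this order overlapped for Grm3 and Grm2, for Grm2 and Grm7, for Grm7 and Grik4 and for Grik3 and Grik2, and the other neighbours were apart in all 10 libraries. Thus the gene for the high-affinity subunit GluK5 held the top place among the kainate genes, and each of the other 4 kainate genes lay below all 4 metabotropic genes in mean level. Exonic lengths came from GENCODE, and the annotation used for counting was not given in the sources used here, so genes with long untranslated exons may be placed too low or too high.

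**Figure D1:**
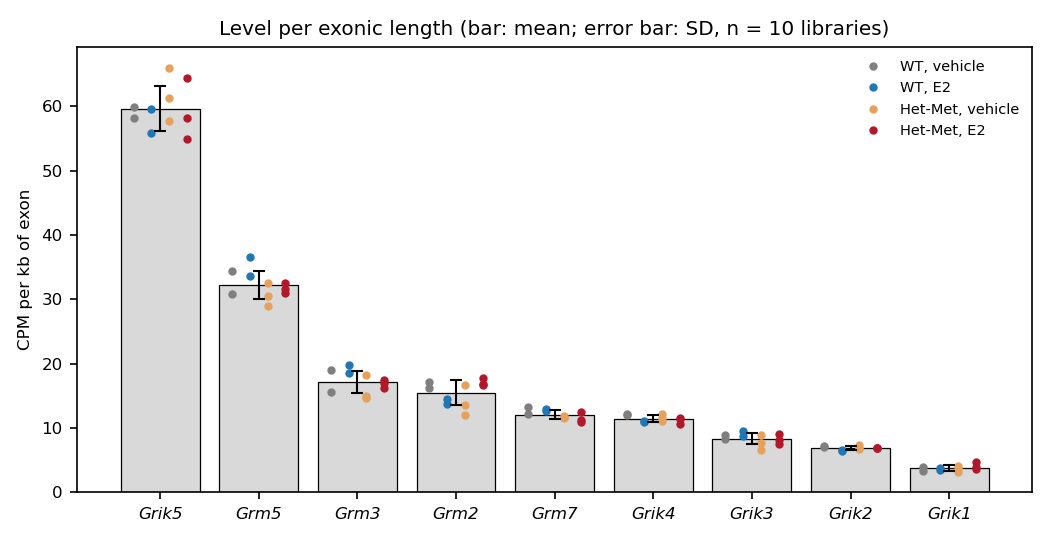
Levels of the 9 receptor genes in CPM per kb of exon, highest first, with each library as a point coloured by group. Bars show the mean and error bars the SD of 10 libraries. Grik5 stands at 59.6 and Grik1 at 3.78 CPM per kb, and within a gene the 4 groups lie close together.

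The genes also differed in how closely replicates agreed. Grik2 had an SD within groups of 0.04 on the log2(CPM + 0.5) scale, and 97.7% of genes tested had a larger one. Grik4 (0.06), Grm7 (0.07), Grm5 (0.08) and Grik5 (0.09) were likewise below the median SD of 0.12 over all genes tested. Above it were Grm3 (0.14), Grm2 (0.14), Grik3 (0.15) and Grik1 (0.16). The genes tested reached down to a mean of 0.5 CPM, where counting adds more to the spread. These ranks therefore partly follow level, and genes of like level were not compared apart. Grik2 itself had 1783 to 2076 reads per library. Grik1 rested on the fewest reads, 459 to 665 per library, where counting alone gives an error of up to 4.67%.

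No receptor gene was called, at the thresholds of the study's methods (Benjamini-Hochberg adjusted p under 0.05, fold change above 1.3) applied here to a limma fit. This was so for E2 in OVX WT mice, where 0.0133% of all genes passed, for E2 in OVX Het-Met mice, where 0% passed, and for genotype under vehicle (0.00663%) and under E2 (0.0265%). It also held for the interaction of genotype and E2 (0.0729%) and for the averages over genotypes (0.00663%) and over treatments (0.0265%). Few genes of any kind were called in these libraries, so the count of 0 sets the receptor genes apart from nothing. In limma, at an unadjusted p under 0.05, 1 of 9 receptor genes was higher with E2 in OVX Het-Met mice (2.82% of all genes). Between genotypes, 1 of 9 was lower in Het-Met libraries under vehicle (4.83%), 1 was higher under E2 (6.29%) and 2 were lower over both treatments (7.27%). For the interaction 1 of 9 was positive (2.8%). For E2 in OVX WT mice 0 of 9 passed (4.04% in either direction). Counts of 1 or 2 of 9 genes are too small to set apart from these shares. On the recovered reads, edgeR and DESeq2 also called 0 of 9 in each of these comparisons.

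The 95% intervals bounded most differences. They lay within 1.3-fold for 7 of 9 receptor genes under E2 in OVX WT mice (54% of all genes), for 7 under E2 in OVX Het-Met mice (65.5%), for 7 between genotypes under vehicle (52.6%) and for 6 between genotypes under E2 (52.5%). Of 36 pairwise intervals, 27 therefore left out a change of 1.3-fold either way, and the 9 that did not belonged to Grm2, Grm3, Grik1 and Grik3. Each group of libraries enters 2 of these 4 comparisons, so the comparisons are not independent of each other.

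**Figure D2:**
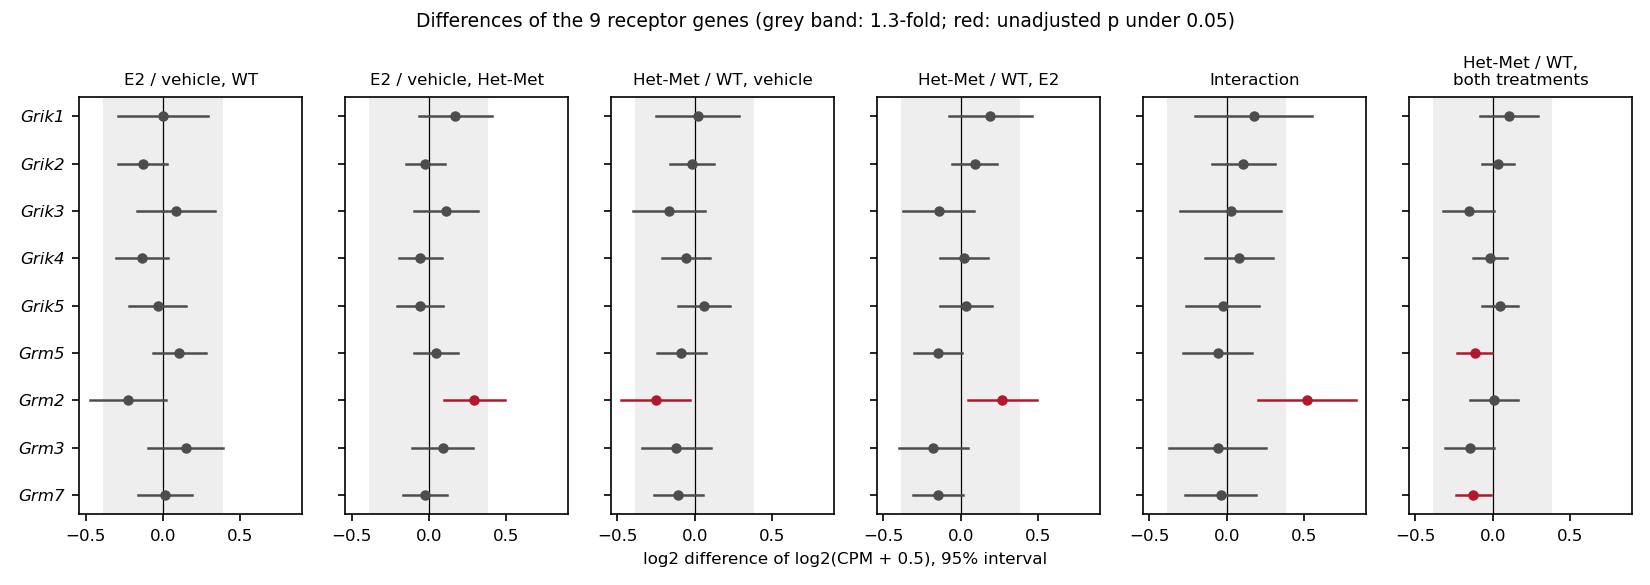
Differences of the 9 receptor genes in limma on the log2(CPM + 0.5) scale (points) with 95% intervals (lines), for 4 pairwise comparisons, the interaction and the genotype difference over both treatments. The grey band marks 1.3-fold and red marks an unadjusted p under 0.05. Grm2 is red in 4 panels, with an interaction of 0.52, and Grm5 and Grm7 are red in the last panel only.

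Grm2, which encodes the presynaptic group II receptor mGlu2, was the receptor gene whose response to E2 differed most between the genotypes. It measured 83.6 and 79.1 CPM in vehicle-treated and 67.6 and 71.4 CPM in E2-treated OVX WT libraries. In OVX Het-Met mice it measured 58.8, 66.4 and 81.4 CPM under vehicle and 87.1, 82.6 and 81.8 CPM under E2. The libraries thus ran in opposite orders: the WT libraries were lower with E2 and did not overlap, whereas the Het-Met libraries were higher with E2 and were kept apart only by the gap between 81.4 and 81.8 CPM. With E2, Grm2 differed by -0.23 on the log2 scale in OVX WT mice (SE 0.11, unadjusted p = 0.0672) and by 0.29 in OVX Het-Met mice (SE 0.09, unadjusted p = 0.00673, adjusted p = 0.748 in limma). The latter is 1.23-fold. Leaving out vehicle-treated Het-Met replicate 1 lowered it to 0.19 (unadjusted p = 0.0428).

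The test of the difference itself, the interaction, gave 0.52 on the log2 scale for Grm2 (SE 0.15, 95% interval 0.20 to 0.83). Its unadjusted p was 0.00314, and its adjusted p in limma was 0.370, short of the threshold. Read between genotypes, Grm2 was lower in Het-Met than in WT libraries under vehicle, by -0.25 (SE 0.10, unadjusted p = 0.0295), and here the groups overlapped through 1 vehicle-treated Het-Met library. That difference was -0.14 without vehicle-treated Het-Met replicate 1 (unadjusted p = 0.137), -0.38 without replicate 3 of that group and -0.21 without vehicle-treated OVX WT replicate 1 (unadjusted p = 0.137). Under E2 it was higher in Het-Met libraries by 0.27 (SE 0.10, unadjusted p = 0.0215), and there the groups did not overlap. Without E2-treated OVX WT replicate 1 it was 0.23 (unadjusted p = 0.122), and without E2-treated Het-Met replicate 1 it was 0.24 (unadjusted p = 0.0605). Averaged over treatments these cancelled to 0.01.

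The size of the Grm2 interaction ranged from 0.41 without vehicle-treated Het-Met replicate 1 to 0.65 without vehicle-treated Het-Met replicate 3, with unadjusted p between 4.88e-05 and 0.0170 over the 10 libraries left out in turn. In group means, choroid plexus markers moved against Grm2. Their summed level was 152 and 1080 CPM in vehicle-treated and 2506 and 1898 CPM in E2-treated OVX WT libraries, and 3252, 1459 and 1923 CPM in vehicle-treated and 1543, 437 and 265 CPM in E2-treated OVX Het-Met libraries. Between replicates, the orders of Grm2 and this sum were opposite in both OVX WT groups. They were mixed in vehicle-treated and the same in E2-treated OVX Het-Met libraries. All 9 of these markers had an unadjusted p under 0.05 for the interaction, with a median of -2.64 on the log2 scale, and none was at 0. With their mean level as a covariate, the Grm2 interaction was 0.48 with an unadjusted p of 0.0742 in limma. The vehicle-treated Het-Met library with the highest Grm2, replicate 3, also had the highest dentate gyrus sum (412 CPM against 290 and 292 CPM in its group) and the lowest interneuron sum (879 against 1071 and 1057 CPM over 7 genes). Its CA3 sum was also the highest (97.9 CPM over 5 genes). In vehicle-treated OVX WT libraries, replicate 1 had the higher Grm2 and the lower dentate gyrus sum (285 against 301 CPM). E2-treated Het-Met replicate 1 likewise had the highest Grm2 and the lowest sum of its group (295 against 348 and 310 CPM). In E2-treated OVX WT libraries, replicate 2 was higher in both (314 against 311 CPM). The part of these cell types in the result was not tested.

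Grm2 lies on the minus strand at chr9:106643095-106656082 (GRCm38, GENCODE vM21), where its 4894 exonic bases share sequence with the antisense gene Gm28111. Gm28111 was not in the table, the library kit kept strand, and whether counting used it was not given in the sources used here. Upstream sequences from the RefSeq table (GRCm38.p6), the 250 bases before the transcription start, were found for 7 of the 9 genes, with 8 starts. Those of Grm2 (minus strand, chr9:106656110-106656359) and of its group II partner Grm3 (minus strand, chr5:9725353-9725602) are shown because these paralogs make receptors of the same class and had different values for the interaction. Bases after the RefSeq start were found in a GENCODE transcript for Grm2, but not for Grm3, whose GENCODE gene ends at 9725170. They were also not found for Grik4 and for the Grm7 window that begins at chr6:110645262. These windows may thus not lie before a start that GENCODE lists. Capitals mark the GC box GGGCGG on either strand.
Grm2: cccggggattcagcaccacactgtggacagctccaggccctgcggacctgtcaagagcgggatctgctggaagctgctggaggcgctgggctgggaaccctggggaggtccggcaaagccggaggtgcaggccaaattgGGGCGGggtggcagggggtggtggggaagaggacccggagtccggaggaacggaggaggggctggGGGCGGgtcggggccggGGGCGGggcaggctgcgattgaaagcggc
Grm3: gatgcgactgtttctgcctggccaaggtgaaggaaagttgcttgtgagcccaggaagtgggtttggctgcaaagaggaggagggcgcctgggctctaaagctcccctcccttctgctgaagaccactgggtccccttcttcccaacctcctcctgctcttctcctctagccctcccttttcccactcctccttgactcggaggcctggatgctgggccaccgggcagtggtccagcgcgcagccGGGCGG

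Grm2 had 3 GC boxes in this window and Grm3 had 1, and a GC box was found at 6 of the 7 receptor genes, where both Grm7 windows overlap and hold the same box. Of 32851 starts in the table, 32.7% had a GC box. All 8 windows had at least the median GC content of 52.4%, with Grm2 at 71.2% and Grm3 at 62.4%. The estrogen response element half-site AGGTCA, searched on both strands, was at 0 of the 8 starts and at 14.02% of all starts. The palindromic estrogen response element was at 0 of 8 and at 0.0639% of all, and the cAMP response element TGACGTCA at 0 of 8 and at 1.55% of all. This says only that these letters were not in these windows.

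**Figure D3:**
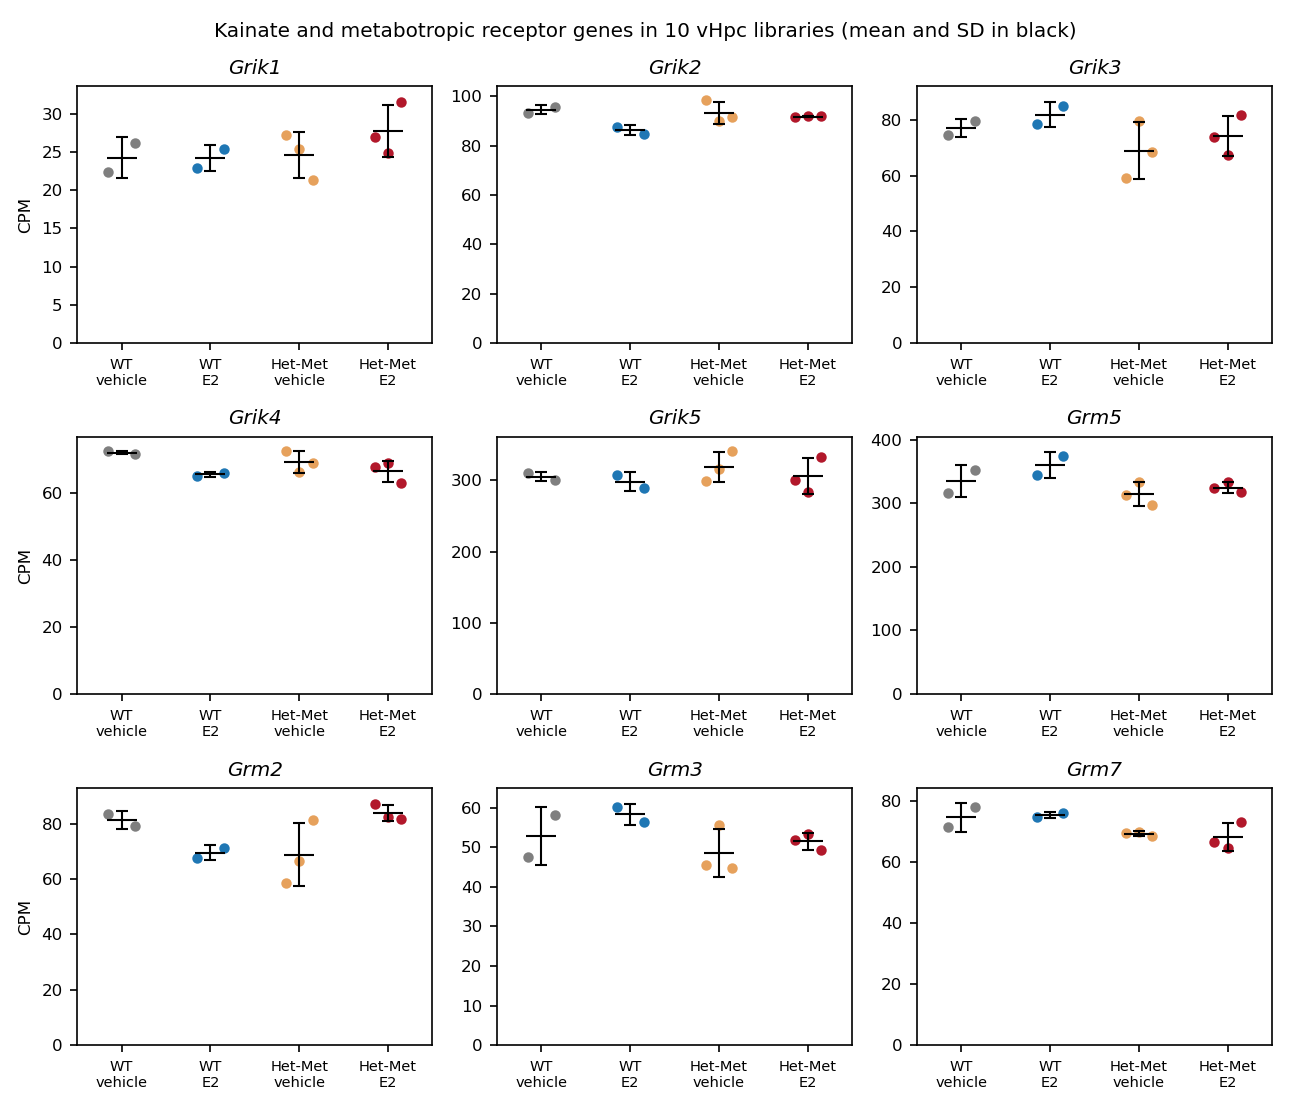
CPM of the 9 receptor genes in 10 libraries by group, with libraries as points and the mean and SD of each group in black. All axes start at 0. The Grm2 panel shows lower values with E2 in OVX WT mice and higher ones in OVX Het-Met mice. The highest and the lowest group mean of Grm2 are 83.8 and 68.9 CPM.

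Grm3, which encodes mGlu3, a group II receptor of neurons and astrocytes, had an interaction of -0.06, with a 95% interval from -0.37 to 0.26. Its levels were 47.7 and 58.1 CPM in vehicle-treated and 60.3 and 56.6 CPM in E2-treated OVX WT libraries, and 45.6, 55.6 and 44.8 CPM in vehicle-treated and 52.0, 53.5 and 49.3 CPM in E2-treated OVX Het-Met libraries. Under E2 the Het-Met libraries were all below the WT libraries. That difference was -0.18 (SE 0.10, unadjusted p = 0.108), and -0.08 (unadjusted p = 0.581) with the choroid plexus covariate. Over both treatments Grm3 differed between genotypes by -0.15 (unadjusted p = 0.0609 in limma). This was -0.08 without vehicle-treated OVX WT replicate 3 and -0.22 without replicate 1 of that group. With all libraries kept, its unadjusted p was under 0.05 in 6 of 12 other settings.

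Grm5 and Grm7 were lower in the OVX Het-Met libraries over both treatments at an unadjusted p under 0.05. Grm5, which encodes mGlu5, the postsynaptic receptor tied to phospholipase C and calcium release, had 316 and 352 CPM in vehicle-treated and 345 and 374 CPM in E2-treated OVX WT libraries. The Het-Met libraries had 313, 334 and 296 CPM under vehicle and 323, 334 and 317 CPM under E2. Under E2 the Het-Met libraries lay below both WT libraries, and under vehicle the groups overlapped. The genotype difference of Grm5 over both treatments was -0.12 on the log2 scale (SE 0.05, unadjusted p = 0.0395, adjusted p = 0.277 in limma). It was -0.05 (unadjusted p = 0.329) once a trend of the libraries with gene length was removed. The exons of Grm5 span 10247 bases, longer than those of 94.0% of genes.

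Grm7, which encodes mGlu7, a low-affinity receptor at the site of release, had 71.4 and 78.1 CPM in vehicle-treated and 74.7 and 76.1 CPM in E2-treated OVX WT libraries. In OVX Het-Met mice it had 69.5, 70.03 and 68.5 CPM under vehicle and 66.6, 64.6 and 73.3 CPM under E2. Within each treatment every Het-Met library was below every WT library. The difference over both treatments was -0.13 (SE 0.05, unadjusted p = 0.0310, adjusted p = 0.252 in limma). E2 itself moved Grm7 by 0.01 in OVX WT mice (95% interval -0.16 to 0.19) and by -0.03 in OVX Het-Met mice (-0.17 to 0.12). Its gene spans 922 kb of chr6:110645581-111567230, the longest of the 9, and overlaps the exons of the antisense gene Gm20387, which was not in the table.

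These 2 genotype differences depended on single libraries. With all libraries kept, Grm7 had an unadjusted p under 0.05 in 12 of 12 other settings (-0.15 to -0.12), and Grm5 in 9 of 12. Leaving out 1 library moved Grm5 between -0.16 and -0.08 and Grm7 between -0.16 and -0.09, with the smallest difference in each case without vehicle-treated OVX WT replicate 3 (unadjusted p = 0.177 for Grm5 and 0.126 for Grm7). Without E2-treated Het-Met replicate 1, E2-treated OVX WT replicate 2 or vehicle-treated OVX WT replicate 3, 0 of 9 receptor genes passed. The direction was shared by 5 of 9 receptor genes, where 42.7% of all genes were below 0. Over all genes, the unadjusted calls were 1407 higher and 1096 lower in Het-Met libraries as deposited, and 1011 higher and 1418 lower after TMM scaling, under which 4 receptor genes were below 0.05: Grm5, Grm7, Grm3 and Grik3.

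Among the kainate receptor genes, 0 of 5 had an unadjusted p under 0.05 in any of these comparisons in the main limma fit. Under other settings, Grik3 passed that threshold over both treatments in 5 of 12 alternatives. For E2 in OVX WT mice, Grik2 and Grik4 each passed it in 1 of 13. Grik3, whose subunit forms channels of low glutamate affinity, had 74.7 and 79.5 CPM in vehicle-treated and 78.7 and 85.1 CPM in E2-treated OVX WT libraries. It had 59.3, 79.4 and 68.3 CPM in vehicle-treated and 73.7, 67.4 and 81.7 CPM in E2-treated OVX Het-Met libraries, so the genotypes overlapped under both treatments. Over both treatments it was the kainate gene with the widest genotype difference, -0.16 (SE 0.08, unadjusted p = 0.0602). Under vehicle that difference was -0.17. It was -0.06 without vehicle-treated Het-Met replicate 1, the lowest library, and -0.27 without replicate 2, the highest of that group.

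Grik2 and Grik4 were lower with E2 in OVX WT mice without overlap between the libraries. With Grm2 they made 3 of 9 receptor genes, where 31.8% of all genes did not overlap. Grik2, the gene of the widespread principal subunit GluK2, had 93.2 and 95.8 CPM under vehicle and 87.6 and 84.8 CPM under E2, a difference of -0.13 (SE 0.07, unadjusted p = 0.0937). In OVX Het-Met mice Grik2 had 98.5, 90.0 and 91.5 CPM under vehicle and 91.5, 91.8 and 91.9 CPM under E2, values that overlapped. Grik4, whose subunit GluK4 is known at mossy fibre synapses, had 72.5 and 71.8 CPM under vehicle and 65.1 and 66.1 CPM under E2 in OVX WT mice. That was a difference of -0.14 (SE 0.08, unadjusted p = 0.108). Its values in OVX Het-Met mice, 72.6, 66.2 and 69.1 CPM under vehicle and 68.0, 68.9 and 63.0 CPM under E2, overlapped. The interactions, 0.11 for Grik2 (95% interval -0.09 to 0.31) and 0.08 for Grik4 (-0.14 to 0.30), give no test-backed difference between the genotypes in this response.

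Without overlap between libraries there were 1 of 9 receptor genes for E2 in OVX Het-Met mice (10.3% of all genes), Grm2, and 1 of 9 between genotypes under vehicle (24.7%), Grm7. Between genotypes under E2 there were 5 of 9 (35.8%), of which Grik2 and Grm2 were higher and Grm3, Grm5 and Grm7 lower in Het-Met libraries.

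Grik1 and Grik5 marked the ends of the range. Grik1, whose subunit GluK1 is prominent in interneurons, had 22.3 and 26.2 CPM in vehicle-treated and 23.0 and 25.4 CPM in E2-treated OVX WT libraries. Its values were 27.2, 25.4 and 21.3 CPM in vehicle-treated and 27.01, 24.8 and 31.5 CPM in E2-treated OVX Het-Met libraries. The groups overlapped throughout, and the largest pairwise difference, between genotypes under E2, was 0.19 (95% interval -0.08 to 0.46), and 0.10 without E2-treated Het-Met replicate 3. Grik5 had 310 and 301 CPM in vehicle-treated and 308 and 289 CPM in E2-treated OVX WT libraries, and 299, 317 and 341 CPM in vehicle-treated and 301, 284 and 333 CPM in E2-treated OVX Het-Met libraries. The largest of its 4 pairwise differences, between genotypes under vehicle, was 0.0601, and all 4 of its pairwise intervals were within 1.3-fold. For E2 averaged over both genotypes 0 of 9 receptor genes had an unadjusted p under 0.05, where 3.22% of all genes had.

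Other genes of glutamate signalling were read from a list of 39, of which 38 passed the filter. With E2, 7 of the 38 were higher and 0 lower in OVX Het-Met mice at an unadjusted p under 0.05, where 426 of all 15081 genes were higher and 396 lower. In OVX WT mice 0 were higher and 1 was lower (358 and 251 of all genes). Under vehicle, 1 was higher and 8 were lower in Het-Met than in WT libraries (882 and 729 of all genes), and under E2, 2 were higher and 4 lower (949 and 809). The vehicle-treated Het-Met libraries enter both the E2 comparison in OVX Het-Met mice and the genotype comparison under vehicle. The counts 7 and 8 are therefore not independent. An interaction at an unadjusted p under 0.05 was found in 3, all positive (423 of all genes positive, 395 negative): Slc17a6, Grm4 and Adcy8. In limma none of the 38 was called at an adjusted p under 0.05.

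Slc17a6, the gene of the vesicular glutamate transporter VGLUT2, had the widest of these differences. It measured 28.4 and 32.5 CPM in vehicle-treated and 24.7 and 22.3 CPM in E2-treated OVX WT libraries, against 21.4, 17.8 and 15.8 CPM in vehicle-treated and 25.6, 31.4 and 29.9 CPM in E2-treated OVX Het-Met libraries. No library overlapped in any of the 4 pairwise comparisons. E2 differed from vehicle by -0.37 in OVX WT mice (unadjusted p = 0.0197) and by 0.65 in OVX Het-Met mice (unadjusted p = 4.21e-05, adjusted p = 0.212 in limma). Het-Met differed from WT by -0.72 under vehicle and by 0.29 under E2. The E2 difference in OVX WT mice was -0.27 without vehicle-treated OVX WT replicate 3. The genotype difference under E2 was 0.22 without E2-treated OVX WT replicate 2. With choroid plexus markers as a covariate, these had an unadjusted p of 0.0931 and 0.112 in limma, but their sizes did not shrink much. The genotype difference under E2 was then 0.31, and over 13 alternatives the E2 difference in OVX WT mice stayed between -0.38 and -0.36. The interaction was 1.02 (SE 0.18, unadjusted p = 4.85e-05, adjusted p = 0.0522 in limma), and on the recovered reads edgeR gave it an adjusted p of 0.0476. DESeq2, which made more calls over all genes, gave Slc17a6 adjusted p-values of 1.82e-04 for the interaction, 5.90e-04 for E2 in OVX Het-Met mice and 1.85e-04 for genotype under vehicle. With choroid plexus markers as a covariate the limma interaction was 1.04 (unadjusted p = 0.00415).

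Further metabotropic receptor genes were read from the same list. Grm4, a group III gene, had 23.2 and 20.5 CPM in vehicle-treated and 17.3 and 19.8 CPM in E2-treated OVX WT libraries, and 15.8, 19.3 and 17.1 CPM in vehicle-treated and 23.7, 21.9 and 24.0 CPM in E2-treated OVX Het-Met libraries. Its interaction was 0.64 (SE 0.16, unadjusted p = 9.89e-04, adjusted p = 0.180 in limma), and 0.41 with an unadjusted p of 0.131 with the choroid plexus covariate. Grm8, also group III, was lower in Het-Met libraries under vehicle by -0.45 (unadjusted p = 0.0144) and differed by 0.38 with E2 in OVX Het-Met mice (unadjusted p = 0.0192). Without vehicle-treated Het-Met replicate 3, at 5.94 CPM the lowest library, these were -0.27 (unadjusted p = 0.145) and 0.20 (unadjusted p = 0.136). Grm6, the receptor gene of retinal bipolar cells, was listed at 0 in all 10 libraries.

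**Figure D4:**
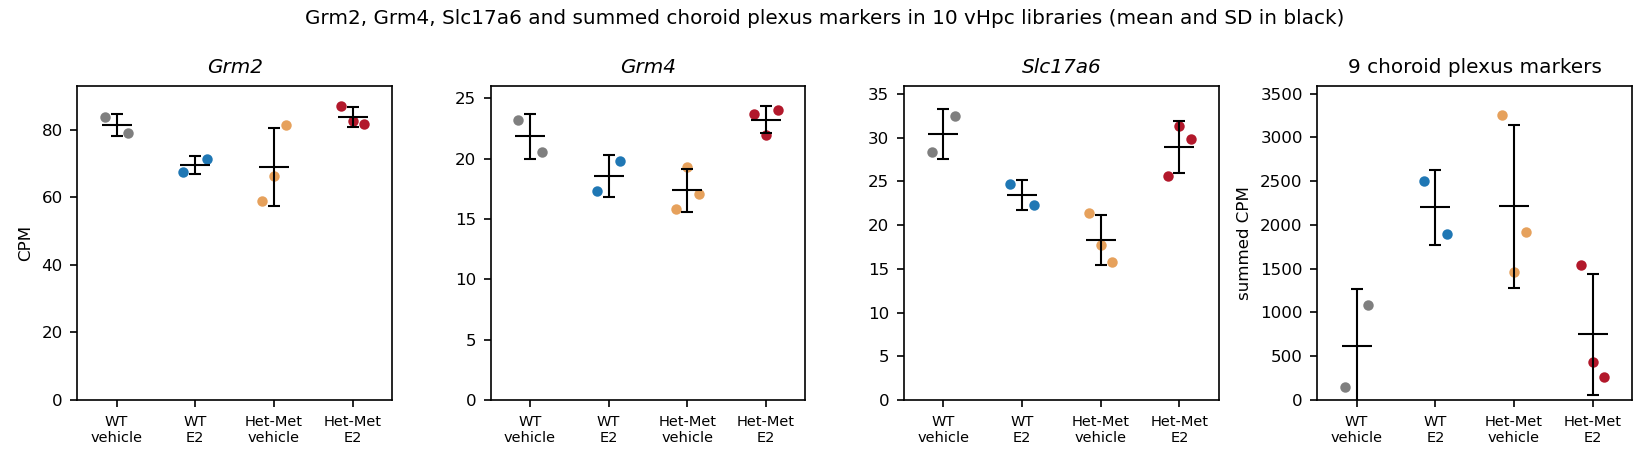
CPM of Grm2, Grm4 and Slc17a6, and the summed CPM of 9 choroid plexus markers, in 10 libraries by group, with libraries as points and mean and SD in black. In the first 3 panels the values are lower with E2 in OVX WT mice and higher in OVX Het-Met mice, and the marker sum runs the other way, from 152 to 3252 CPM.

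Neto1 and Neto2 encode auxiliary subunits of kainate receptors. Neto1 was lower in Het-Met libraries over both treatments, by -0.17 (unadjusted p = 0.0137, adjusted p = 0.190 in limma), whereas Neto2 had no unadjusted p under 0.05. Over both treatments 7 of the 38 genes had an unadjusted p under 0.05, and all were lower in Het-Met libraries as deposited. Of all genes 7.27% were lower at that threshold, and the balance over all genes turned with TMM scaling, as given above. Homer1, whose protein ties group I receptors to calcium stores, had the smallest p of them, with a difference of -0.24 (unadjusted p = 0.00200, adjusted p = 0.126 in limma and 0.0230 in DESeq2, below the fold limit). With the gene length trend removed it was -0.15. It was -0.24 under either treatment, and under vehicle -0.09 without vehicle-treated OVX WT replicate 3. Under E2, Elfn2, which encodes a synaptic adhesion protein that binds group III receptors, was lower by -0.39 (unadjusted p = 0.00597) and Itpr1, a calcium store channel, by -0.27 (unadjusted p = 0.0347). For Itpr1 the difference was -0.04 with the choroid plexus covariate. Downstream of the receptors, with E2 in OVX Het-Met mice, Adcy8, a calcium-stimulated adenylyl cyclase, was higher by 0.30 (unadjusted p = 0.0129) and Plcb4, a phospholipase C, by 0.37 (unadjusted p = 0.0137). Under vehicle Adcy8 was lower in Het-Met libraries by -0.36, and by -0.16 without vehicle-treated OVX WT replicate 1. With the choroid plexus covariate the Adcy8 differences were 0.13 (unadjusted p = 0.284) with E2 and -0.13 (unadjusted p = 0.378) between genotypes under vehicle.

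The gene whose log2(CPM + 0.5) profile was most alike over the 10 libraries, among 15080 other genes, was Srpk1 for Grm2 (Pearson's r = 0.926), Msi2 for Grm3 (0.967), Cdh2 for Grm5 (0.971) and Slc7a7 for Grm7 (0.929). For the kainate genes it was Igsf21 for Grik1 (0.928), Zfp867 for Grik2 (0.924), Kcnn3 for Grik3 (0.957), Def6 for Grik4 (0.906) and Sgsm2 for Grik5 (0.937). These values share the libraries and their depth and are given as a description. No gene was the closest partner of 2 receptor genes, and no receptor gene was the closest partner of another.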

How the data were processed

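RNA-seq of vHpc was analysed from 10 libraries, grouped by genotype and treatment as labelled. Human libraries are left aside. Read trimming and filtering were done by the authors, who then took 75-bp single-end reads of stranded libraries and aligned them to mm10 with TopHat2, and deposited CPM, reads per 1000000 reads on genes. The strand setting of the counting was not given in the sources used here. In every library 100% of values were whole multiples of 1 read (tolerance 0.01), and reads were recovered from them. Depth was 19820184 to 23267410 reads on genes, and counting errors cover counting only.

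CPM were put on a log2(CPM + 0.5) scale, and 15081 genes whose mean reached 0.5 CPM entered the fit. Group means were fitted with limma 3.58.1 (R 4.3.3; empirical Bayes with trend, 8.90 prior and 6 residual degrees of freedom), two-sided, with Benjamini-Hochberg adjustment over all genes. SE and 95% intervals are from that fit. Calls needed an adjusted p under 0.05 and a fold change above 1.3, after the study's methods. p-values measure the spread between these pooled libraries. Positions and lengths came from GENCODE vM21 (GRCm38). Of 24421 symbols, 23384 matched directly, 669 by an older symbol and 368 did not.

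The 9 members, the lists and the tests were chosen with earlier results of these data known. Named genes were the members, Grm4, Grm6, Grm8, Neto1, Neto2, up to 3 further listed genes per pairwise comparison with the smallest unadjusted p under 0.05, and the most alike gene of each member. A further item is not reported here. Listed genes with values outside the comparison that named them were added after values were seen. Alternatives were other pseudocounts (0.1 and 1), filters (none, or 2 CPM), scalings (TMM, median of ratios, quantile), removal of a gene length trend, a replicate block, only the libraries compared, a choroid plexus covariate, edgeR 4.0.16, DESeq2 1.42.0, other thresholds and each library left out. The fit was tested on simulated data. Figures used matplotlib 3.10.9 in python 3.11.15.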

Additional observations from a re-analysis of the deposited data

Results flagged for a closer look

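The response of Grm2 to E2 differed between the genotypes by a test of the difference itself. The interaction was 0.52 on the log2 scale (limma, unadjusted p = 0.00314, adjusted p = 0.370), from -0.23 in OVX WT and 0.29 in OVX Het-Met mice. It does not pass the adjusted threshold, and the unadjusted p alone singles it out.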

How the results depend on the processing

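The count of receptor genes called was 0 in every comparison under every alternative run, except that 1, Grm2, passed for the interaction with an unadjusted p under 0.05 and the fold change limit. Of 792 single receptor gene values under other settings, 28 changed sign and 764 kept their call and direction. With 1 library left out, 37 of 630 changed sign. Among the differences reported, the interaction of Grm5 turned from -0.06 to 0.0113 with the choroid plexus covariate, and leaving out 1 library gave -0.137 to 0.0177. The cause was not tested. The Grm2 interaction lay between 0.48 and 0.52 over 12 alternatives, 11 of them with an unadjusted p under 0.05. The number of receptor genes with an unadjusted p under 0.05 over both treatments was 2 as reported, 4 with TMM or median-of-ratios scaling, edgeR or DESeq2, and 1 with the covariate.

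Replicate numbers were shared between groups, and the deviations of same-numbered libraries correlated between -0.17 and 0.08. In a WT group of 2 libraries the deviations mirror each other, so this could decide little about pairing there. The main fit used no replicate block because the study's methods name none. With the replicate number as a block, the Grm2 interaction was 0.48 (unadjusted p = 0.0109), and genes called for the interaction over the whole table went from 11 to 18. For E2 in OVX WT mice they went from 2 to 10, and 0 receptor genes were called in each comparison. The block left 0 receptor genes with an unadjusted p under 0.05 between genotypes under E2.

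Groups of 2 or 3 pooled libraries limit these results. Depth mattered to a different degree by gene. Grik1, with the fewest reads, had at least 459, a counting error of up to 4.67%. Its SD within groups was 0.16 on the log2 scale, so counting was a small part of it. For Grik2 the counting error was up to 2.37% and the SD within groups only 0.04, so counting was a larger part there.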
